A study of Penicillium oxalicum with 18 samples.

Results

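Transcript levels of 5 transcription factor genes that act on cellulase and amylase genes were followed through 6 groups of *Penicillium oxalicum* libraries. They are clrB (PDE_05999), xlnR (PDE_07674), amyR (PDE_03964), creA (PDE_03168) and ace1 (PDE_01988), and they were chosen by name, as known regulators of cellulase, xylanase and amylase genes. They make up 5 of the 9230 genes in the table, and all 5 were above the filter on low values in every comparison.

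Filamentous fungi that degrade plant biomass secrete cellulases and hemicellulases when an insoluble polymer is the carbon source, and they shut these genes down when glucose is at hand. ClrB and XlnR are zinc cluster activators: ClrB acts on cellulase genes and XlnR on xylanase and cellulase genes. AmyR is the zinc cluster activator of amylase genes, CreA is the zinc finger repressor of carbon catabolite repression, and Ace1 is a zinc finger protein first described in *Trichoderma reesei* as a repressor of cellulase and xylanase genes.

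The study asked how Fbx23, an F-box protein, bears on these programs. F-box proteins pick the targets of SCF ubiquitin ligases, so much of what they do happens to proteins, and the libraries measured transcripts only. The strains were the WT (114-2), the Δfbx23 mutant, in which fbx23 was replaced by a hygromycin resistance gene, and Refbx23, in which fbx23 was put back into the Δfbx23 mutant with a pyrithiamine resistance gene. How many transformants stood behind each strain is not given in the sources used here. Spores were grown for 24 h at 30°C with glucose and the mycelia were then moved to one of 2 media. VMMG held 2% glucose, and VMMC held, by the sample labels, 1% bran and 1% microcrystalline cellulose, where the study's methods name cellulose without bran. The labels give 18 h of growth after the transfer, and the methods another time. There were 3 replicate libraries per strain and medium, 18 in all, which the paper calls biological triplicates for the WT and Δfbx23. The labels do not say whether they came from separate cultures, so the tests measure the spread between these libraries, part of which may be technical.

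The table gives FPKM, read numbers scaled to transcript length and to the size of the library, and levels of different genes are set side by side on this scale. FPKM sums ran from 781397 to 954142 per library and no read counts were given, so the depth behind a value is unknown. The deleted gene, fbx23 (PDE_08467), was at 0 in all 6 Δfbx23 libraries and between 56.9 and 76.85 FPKM in the rest. Replicates correlated across genes with Pearson's r of 0.959 to 0.993 on the log2(FPKM + 1) scale. The lowest values came from WT replicate 3 in VMMG, whose r was 0.959 and 0.973 with the other libraries of its group, while those correlated at 0.992. That library held 294 FPKM over 13 cellulase genes, against 778 and 693 FPKM in its replicates, and 1074 FPKM over 6 conidial pigment genes, against 477 and 644 FPKM. Results that rest on it are given with and without it.

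The regulators covered very different ranges. clrB spanned 54.3-fold between its lowest and highest library, amyR 8.57-fold, xlnR 8.14-fold, creA 3.97-fold and ace1 2.00-fold. Over all 18 libraries creA had the highest mean level, at 227 FPKM, followed by ace1 at 123, amyR at 107, clrB at 69.3 and xlnR at 23.4 FPKM. Together the 5 genes summed to 287 ± 57.5 FPKM (SD, n = 3) in the WT in VMMG and 896 ± 63.6 FPKM (SD, n = 3) in the WT in VMMC.

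**Figure D1:**
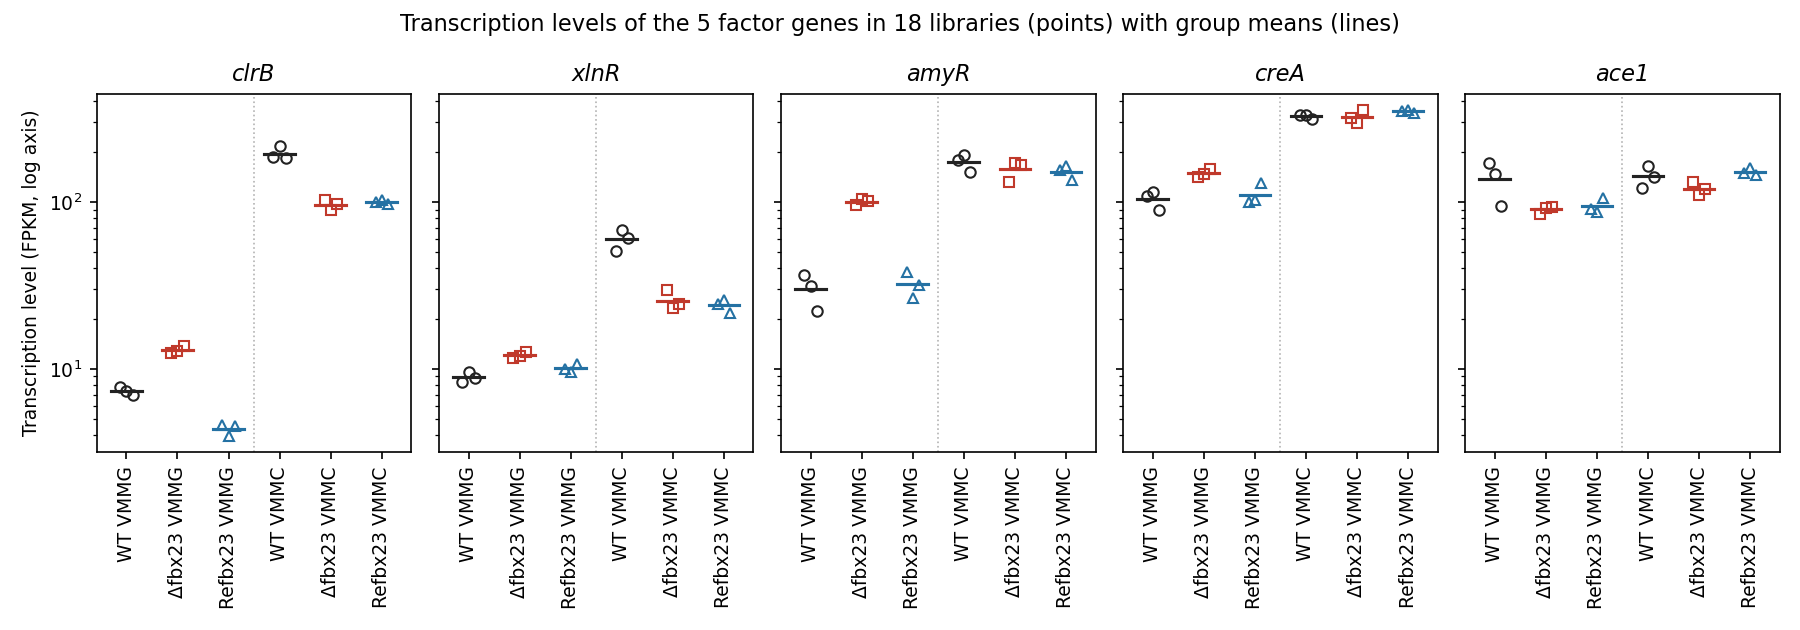
Transcription levels of the 5 regulator genes in FPKM on a log axis, with 1 point per library, a line at the mean of each group of 3, and circles, squares and triangles for the WT, Δfbx23 and Refbx23. In VMMC the WT points of clrB, between 183 and 216 FPKM, lie above all Δfbx23 and Refbx23 points, and in VMMG the Δfbx23 points of amyR, between 95.6 and 104 FPKM, lie above all others.

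The media were compared first, within each strain. In the WT, 4 of the 5 genes, all but ace1, were at least 2-fold higher in VMMC than in VMMG at an adjusted p under 0.05, whereas 25.7% of the 8053 genes tested rose in this way. In Δfbx23 it was 3 of 5, clrB, xlnR and creA, against 20.9% of 7911 genes, and in Refbx23 it was 4 of 5, again all but ace1, against 13.7% of 7958 genes. At an adjusted p under 0.05 of any size, 4, 5 and 5 members were higher in VMMC in the WT, Δfbx23 and Refbx23, beside 41.2%, 42.6% and 34.8% of all genes. Groups did not overlap for 4 members in the WT and for 5 in each of the other strains, but 77.0%, 76.3% and 69.4% of all genes tested were also free of overlap in the WT, Δfbx23 and Refbx23. The median of all genes was itself shifted towards VMMC, by 0.13 in the WT, 0.18 in Δfbx23 and 0.06 in Refbx23 on the log2 scale, so that changes relative to these medians are smaller by that much. Of the genes past an adjusted p of 0.05 in Δfbx23, 60.7% were higher in VMMC, and 49.9% after scaling each library by its median ratio.

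Strains were then compared within a medium, and the fit for each pair used its own 6 libraries. Δfbx23 and Refbx23 were compared with the same WT libraries, so these contrasts are not independent of each other. In VMMG, 1 member, amyR, was at least 2-fold higher in Δfbx23 than in the WT, against 4.77% of 7691 genes, and 4 members were higher at an adjusted p under 0.05 of any size, against 10.9% of genes. In VMMC, clrB and xlnR were at least 2-fold lower in Δfbx23, which is 2 of 5 against 8.34% of 8006 genes. Refbx23 differed from the WT by at least 2-fold for 0 of 5 members in VMMG, against 18.3% of 7795 genes in either direction, and 1 of 5, clrB, was lower at an adjusted p under 0.05, against 21.2% of genes. In VMMC, 1 member, xlnR, was at least 2-fold lower in Refbx23 than in the WT, against 7.09% of 8012 genes, and xlnR and clrB were lower at an adjusted p under 0.05, against 31.3%. Groups did not overlap for 5 members in Δfbx23 against the WT in VMMG and for 2 in VMMC, beside 45.8% and 61.1% of all genes. For Refbx23 against the WT these were 2 members in VMMG and 3 in VMMC, beside 58.8% and 68.0% of all genes. A single gene with 3 libraries on each side cannot fall below p = 0.1 in a two-sided exact permutation test, and every pair of groups without overlap reached that value. The medium effect itself was then compared between strains. Its log2 value was at least 2-fold lower in Δfbx23 than in the WT for 3 members, clrB, xlnR and amyR, against 10.8% of 8062 genes. At an adjusted p under 0.05 of any size it was lower for 4 members, against 21.7%. In Refbx23 it was at least 2-fold lower for 1 member, xlnR, against 16.8% of 8072 genes. At an adjusted p under 0.05 it was lower there for 2, against 30.8%. These shares may include genes that fell further in VMMC than they did in the WT.

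**Figure D2:**
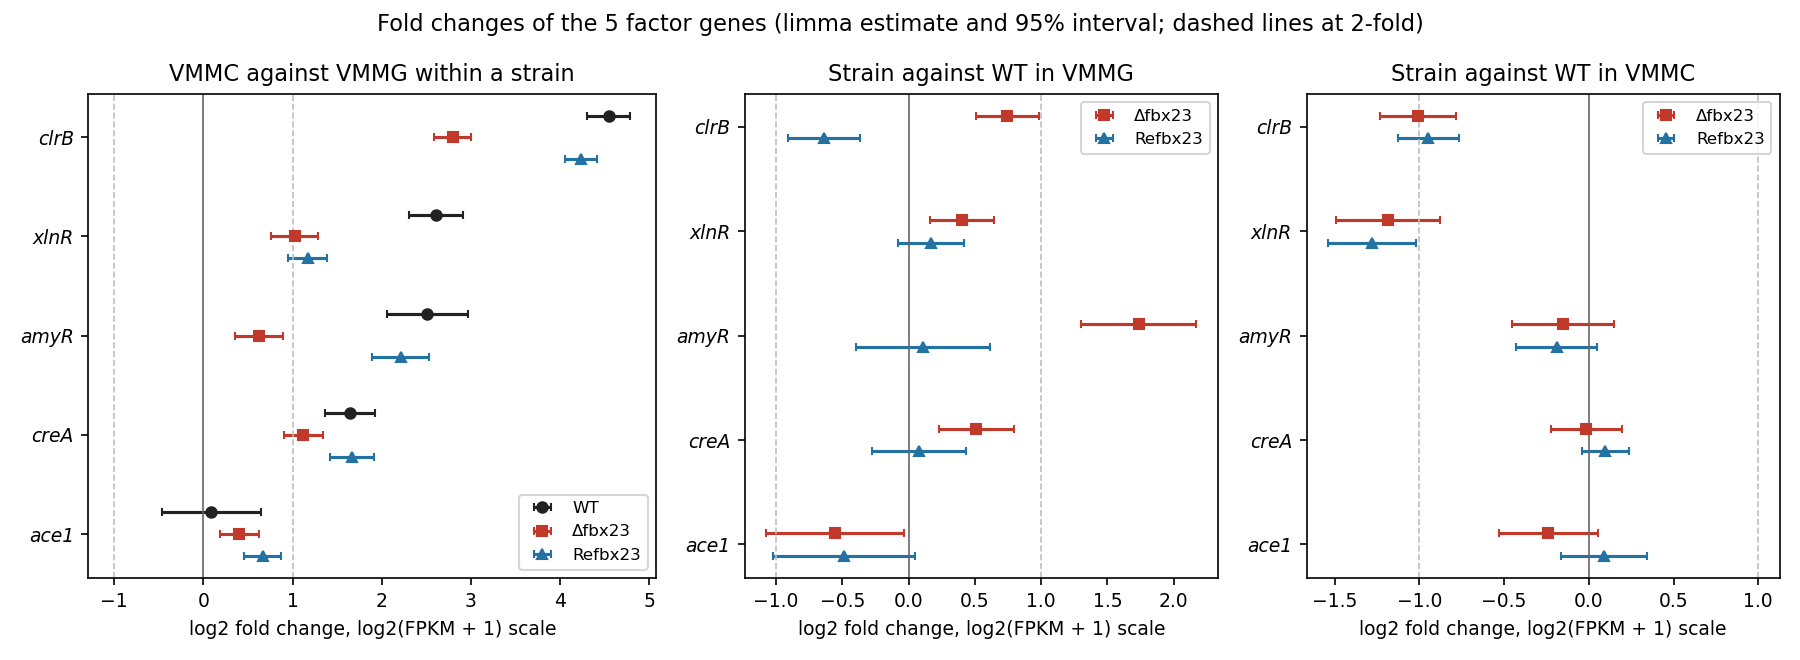
log2 fold changes of the 5 genes on the log2(FPKM + 1) scale, with points for the limma estimates, bars for 95% intervals and dashed lines at 2-fold, for VMMC against VMMG within each strain and for each engineered strain against the WT in both media. In VMMC the estimates of clrB and xlnR lie from -1.28 to -0.95 in both engineered strains, while those of creA lie at -0.01 and 0.10.

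The activator gene clrB responded most to the medium and differed between strains in both media. In VMMG it was at 7.73, 7.39 and 6.96 FPKM in the WT, at 12.4, 12.8 and 13.8 FPKM in Δfbx23 and at 4.61, 3.98 and 4.53 FPKM in Refbx23. The 3 strains thus stood apart without overlap, in the order Refbx23, WT, Δfbx23. In VMMC the gene was at 185, 216 and 183 FPKM in the WT, at 103, 89.2 and 96.7 FPKM in Δfbx23 and at 99.99, 103 and 97.7 FPKM in Refbx23. Here both engineered strains lay below every WT library and overlapped with each other. Among the genes of a library, clrB sat at the 33.9th to 34.8th percentile of levels in the WT in VMMG and at the 92.6th to 93.9th in VMMC.

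From VMMG to VMMC the mean of clrB rose 26.4-fold in the WT, from 7.36 ± 0.39 to 195 ± 18.5 FPKM (SD, n = 3). On the log2 scale this was 4.55 (SE 0.10, adjusted p = 3.01e-07, limma with Benjamini-Hochberg adjustment), or 4.41 above the median of all genes, and the size of the change was at the 97.2th percentile of the genes tested. The rise was 7.40-fold in Δfbx23, with a log2 change of 2.79 (SE 0.09, adjusted p = 9.02e-07), and 22.9-fold in Refbx23, with 4.24 (SE 0.08, adjusted p = 5.16e-08). The difference between the rises of Δfbx23 and the WT was tested as an interaction and came to -1.75 (95% interval -2.03 to -1.47), past the threshold over 8062 genes in limma. It is made up of a higher start in VMMG and a lower end in VMMC. For Refbx23 the corresponding difference was -0.31 (95% interval -0.57 to -0.04, adjusted p = 0.047), and this call was lost without any single one of 8 of the 12 libraries, where the log2 differences were -0.33 to -0.23 and the adjusted p 0.066 to 0.114, and also with median-ratio scaling (adjusted p = 0.070).

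Between strains, clrB in VMMG was 1.77-fold higher in Δfbx23 than in the WT, a log2 change of 0.74 (SE 0.10, adjusted p = 0.0035), and Refbx23 had 59.4% of the WT level, a change of -0.64 (SE 0.11, adjusted p = 0.0050). In VMMC, Δfbx23 had 49.4% of the WT level and Refbx23 51.5%. The log2 changes were -1.01 (SE 0.10, adjusted p = 0.000105) and -0.95 (SE 0.08, adjusted p = 2.44e-05), on either side of the 2-fold line. The 2-fold call in Δfbx23 was lost, with the adjusted p still under 0.05, without WT VMMC replicate 2 at -0.93, without Δfbx23 VMMC replicate 2 at -0.95 and with median-ratio scaling at -0.97. Refbx23 and Δfbx23 differed by 0.06 in VMMC (95% interval -0.10 to 0.22, adjusted p = 0.617) and by -1.38 in VMMG (SE 0.10, adjusted p = 8.24e-05). These strains thus stood apart in clrB in glucose and overlapped in cellulose.

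The gene of the xylanase and cellulase activator XlnR followed clrB in VMMC but not in VMMG. In VMMG, xlnR was at 8.29, 9.57 and 8.78 FPKM in the WT, at 11.6, 11.9 and 12.7 FPKM in Δfbx23 and at 9.92, 9.63 and 10.7 FPKM in Refbx23. All Δfbx23 libraries were above all others, and the lowest Refbx23 library was just above the highest of the WT. In VMMC it was at 50.9, 67.5 and 60.7 FPKM in the WT, at 29.6, 23.1 and 24.3 FPKM in Δfbx23 and at 24.6, 25.7 and 21.6 FPKM in Refbx23. The WT libraries lay above those of both engineered strains, which overlapped.

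xlnR rose 6.72-fold from VMMG to VMMC in the WT, a log2 change of 2.61 (SE 0.13, adjusted p = 4.35e-06), or 2.48 above the median of all genes. It rose 2.13-fold in Δfbx23, with 1.02 (SE 0.11, adjusted p = 0.000201), and 2.38-fold in Refbx23, with 1.17 (SE 0.09, adjusted p = 3.95e-05). The smaller rises differed from that of the WT by -1.59 in Δfbx23 (95% interval -1.97 to -1.21) and by -1.44 in Refbx23 (95% interval -1.79 to -1.10), both past 2-fold and an adjusted p of 0.05. In Δfbx23 the value sat close to the 2-fold line: it was 0.85 with median-ratio scaling, 0.92 without Δfbx23 VMMC replicate 1 and 1.00, rounded from just below 1, without Δfbx23 VMMG replicate 1.

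In VMMC, Δfbx23 had 43.0% and Refbx23 40.1% of the WT level of xlnR, with log2 changes of -1.19 (SE 0.13, adjusted p = 0.000227) and -1.28 (SE 0.11, adjusted p = 3.69e-05). Both stayed past 2-fold without any single library, between -1.29 and -1.09 and between -1.38 and -1.19. In VMMG the change in Δfbx23 was 0.40 (SE 0.10, adjusted p = 0.030). This call was lost without any 1 of 5 of the 6 libraries, where adjusted p lay between 0.061 and 0.116, and was kept at 0.038 without WT VMMG replicate 3. In Refbx23 the change in VMMG was 0.17 (95% interval -0.08 to 0.42, adjusted p = 0.231). Refbx23 against Δfbx23 gave -0.24 (adjusted p = 0.062) in VMMG, -0.30 with an adjusted p of 0.022 after median-ratio scaling, and -0.09 (95% interval -0.35 to 0.17) in VMMC.

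The amylase activator gene amyR separated the strains in glucose and not in cellulose. In VMMG it was at 36.3, 31.5 and 22.2 FPKM in the WT, at 95.6, 104 and 101 FPKM in Δfbx23 and at 38.0, 26.6 and 31.8 FPKM in Refbx23. The lowest Δfbx23 library was thus above the highest of the other strains, whose ranges overlapped. In VMMC it was at 178, 190.0 and 152 FPKM in the WT, at 131, 172 and 165 FPKM in Δfbx23 and at 155, 164 and 135 FPKM in Refbx23, and all 3 ranges overlapped.

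The mean of amyR in VMMG was 3.35-fold higher in Δfbx23 than in the WT, at 100.4 ± 4.41 against 30.0 ± 7.18 FPKM (SD, n = 3). The log2 change was 1.74 (SE 0.18, adjusted p = 0.00153), at the 93.7th percentile of sizes among all genes tested, and it was 1.54 without WT VMMG replicate 3. Refbx23 was at 107% of the WT level, a log2 change of 0.11 (95% interval -0.40 to 0.62, adjusted p = 0.695) whose sign turned to -0.09 without WT VMMG replicate 3. Against Δfbx23 it was lower by 1.63 (SE 0.13, adjusted p = 0.000114). In VMMC the change in Δfbx23 was -0.15 (95% interval -0.45 to 0.15) and that in Refbx23 -0.19 (95% interval -0.43 to 0.05, adjusted p = 0.147). The latter passed with -0.28 and an adjusted p of 0.042 without WT VMMC replicate 3, and at an adjusted p of 0.039 with a replicate block. From VMMG to VMMC amyR rose 5.77-fold in the WT, a log2 change of 2.51 (SE 0.19, adjusted p = 3.00e-05), 4.71-fold in Refbx23, with 2.21 (SE 0.14, adjusted p = 1.29e-05), and 1.56-fold in Δfbx23, with 0.62 (SE 0.11, adjusted p = 0.0025). The rise in Δfbx23 was smaller than that in the WT by 1.89 on the log2 scale (95% interval -2.41 to -1.37), past the threshold, and for Refbx23 the difference was -0.30 (95% interval -0.86 to 0.26, adjusted p = 0.331).

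creA, the gene of the carbon catabolite repressor, was the most abundant of the 5 in VMMC and higher there than in glucose. In VMMG it was at 108, 115 and 89.6 FPKM in the WT, at 141, 147 and 157 FPKM in Δfbx23 and at 99.2, 103 and 129.6 FPKM in Refbx23. The Δfbx23 libraries were above all others, while those of the WT and Refbx23 overlapped. In VMMC it was at 333, 331 and 315 FPKM in the WT, at 318, 298 and 356 FPKM in Δfbx23 and at 351, 355 and 343 FPKM in Refbx23, with Refbx23 above the WT and Δfbx23 overlapping both. These are levels at or above the 95.3th percentile of all genes of a library.

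The rise of creA from VMMG to VMMC was 3.13-fold in the WT, 2.19-fold in Δfbx23 and 3.16-fold in Refbx23. The log2 changes were 1.64 (SE 0.12, adjusted p = 2.30e-05), 1.12 (SE 0.09, adjusted p = 5.12e-05) and 1.66 (SE 0.10, adjusted p = 1.42e-05), and that of Δfbx23 was 0.94 after median-ratio scaling. The rise in Δfbx23 was smaller than in the WT by 0.52 (95% interval -0.85 to -0.20, adjusted p = 0.015), and that in Refbx23 differed by 0.02 (95% interval -0.34 to 0.38). In VMMG, creA was 1.42-fold higher in Δfbx23 than in the WT, a log2 change of 0.51 (SE 0.12, adjusted p = 0.024). The call was lost without WT VMMG replicate 1 (adjusted p = 0.056) and without Δfbx23 VMMG replicate 2 or 3 (adjusted p = 0.073 and 0.093), and held at 0.41 (adjusted p = 0.017) without WT VMMG replicate 3. Refbx23 was below Δfbx23 in VMMG by 0.43 (adjusted p = 0.019), a call lost without Δfbx23 VMMG replicate 3 or Refbx23 VMMG replicate 1 or 2, where adjusted p lay between 0.054 and 0.068. In VMMC no strain comparison of creA passed, and the 95% interval of Δfbx23 against the WT ran from -0.23 to 0.20.

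The repressor gene ace1 had the narrowest range and the least certain differences. In VMMG it was at 169.7, 146 and 94.5 FPKM in the WT, at 84.9, 92.5 and 93.8 FPKM in Δfbx23 and at 90.8, 87.3 and 106 FPKM in Refbx23. WT replicate 3 was just above the highest Δfbx23 library and within the range of Refbx23, while its replicates were far above both. In VMMC it was at 121, 165 and 142 FPKM in the WT, at 131, 109.7 and 119 FPKM in Δfbx23 and at 148, 159 and 145 FPKM in Refbx23. Refbx23 lay above Δfbx23, and the WT overlapped with both.

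In VMMG the log2 change of ace1 in Δfbx23 was -0.55 (95% interval -1.07 to -0.03, adjusted p = 0.111), which did not pass, and without WT VMMG replicate 3 it was -0.80 (adjusted p = 0.0036). In Refbx23 these values were -0.49 (95% interval -1.02 to 0.04, adjusted p = 0.116) and -0.73 (adjusted p = 0.0039). With all 18 libraries in 1 fit both passed at the same sizes, with adjusted p of 0.016 and 0.021. Refbx23 and Δfbx23 differed there by 0.06 (95% interval -0.17 to 0.30), and by -0.00046 after median-ratio scaling. In VMMC neither strain differed from the WT past the threshold, with -0.24 (adjusted p = 0.150) in Δfbx23 and 0.09 (adjusted p = 0.495) in Refbx23. Without WT VMMC replicate 1 the former passed at -0.35 (adjusted p = 0.041) and the latter turned to -0.02. Refbx23 was 1.26-fold above Δfbx23 in VMMC, a log2 change of 0.33 (SE 0.08, adjusted p = 0.034), the 1 member call of that comparison, in which 9.16% of 7894 genes were higher at an adjusted p under 0.05. Only leaving out Δfbx23 VMMC replicate 1 kept it, and without any other single library adjusted p lay between 0.077 and 0.129.

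For ace1 the medium effect passed in both engineered strains and not in the WT. The mean in VMMC was 104% of that in VMMG in the WT, with a log2 change of 0.09 (95% interval -0.47 to 0.64, adjusted p = 0.75). Its sign was negative with median-ratio scaling, at -0.07, and without WT VMMG replicate 3, at -0.16. ace1 rose 1.33-fold in Δfbx23, with 0.40 (SE 0.09, adjusted p = 0.0063), which is 0.22 above the median of all genes and had an adjusted p of 0.071 after median-ratio scaling. It rose 1.59-fold in Refbx23, with 0.67 (SE 0.09, adjusted p = 0.00052). The differences of these changes from that of the WT were 0.32 (adjusted p = 0.365) and 0.58 (adjusted p = 0.085), and without WT VMMG replicate 3 they were 0.56 (adjusted p = 0.024) and 0.82 (adjusted p = 0.0020). The difference in Refbx23 also passed with median-ratio scaling, at 0.64 (adjusted p = 0.040), and with all 18 libraries in 1 fit (adjusted p = 0.047).

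Refbx23, with fbx23 put back, was compared with Δfbx23 in each of the 2 media. In VMMG, Refbx23 was at least 2-fold below Δfbx23 for 2 of 5 members, clrB and amyR, against 8.42% of 7782 genes. The ranges of Refbx23 and the WT overlapped for amyR, and for clrB Refbx23 was below the WT. In VMMC, 0 of 5 members differed by 2-fold or more between Refbx23 and Δfbx23, against 3.12% of 7894 genes in either direction. A count of 0 of 5 is near that share, so it says nothing particular of the members. Among all genes, 1695 of 7782 differed by 2-fold at an adjusted p under 0.05 in VMMG and 246 of 7894 in VMMC. In the latter medium fbx23 was listed at 0 in Δfbx23 and was at 60.8 ± 5.42 FPKM (SD, n = 3) in Refbx23. clrB and xlnR stayed at 51.5% and 40.1% of the WT level in this strain. Groups did not overlap for 4 members in VMMG and for 1 in VMMC, beside 67.1% and 35.9% of all genes. Of the genes past an adjusted p of 0.05 in VMMC, 60.6% were higher in Refbx23, and 50.3% after median-ratio scaling.

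A ratio of 2 genes within a library does not depend on how that library was scaled. The clrB to creA ratio was 0.0643 to 0.0777 in the WT in VMMG and 0.556 to 0.652 in the WT in VMMC, 8.39-fold higher by the means of the log2 ratios. In VMMC it was 0.272 to 0.323 in Δfbx23 and 0.285 to 0.290 in Refbx23, so that creA was 1.68, 3.36 and 3.49 times as abundant as clrB in the WT, Δfbx23 and Refbx23. The clrB to ace1 ratio was above 1 in every WT library in VMMC, from 1.29 to 1.53, and below 1 in all other libraries. It was 0.785 to 0.813 in Δfbx23 and 0.648 to 0.676 in Refbx23 in VMMC, and it stayed between 0.0427 and 0.147 in VMMG.

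The xlnR to creA ratio was 0.0766 to 0.0980 in VMMG and 0.153 to 0.204 in VMMC in the WT, while in Δfbx23 it was 0.0806 to 0.0826 and 0.0683 to 0.0929. The media did not overlap in the WT and overlapped in the mutant. In Refbx23 the ratio was 0.0825 to 0.1 in VMMG and 0.0630 to 0.0723 in VMMC. The amyR to creA ratio was highest in Δfbx23 in VMMG, at 0.646 to 0.709, against 0.247 to 0.335 in the WT and 0.245 to 0.383 in Refbx23. It was lower in VMMC than in VMMG in Δfbx23, by 0.50 on the log2 scale, and higher by 0.90 in the WT and by 0.58 in Refbx23. Of 36 ratio comparisons, 26 had groups without overlap, each at the smallest p of 0.1 in a two-sided exact permutation test, which becomes 0.138 after Benjamini-Hochberg adjustment over the 36. Single genes did not overlap for 35.9% to 77.0% of all genes in these comparisons, so the count says nothing particular of the ratios.

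**Figure D3:**
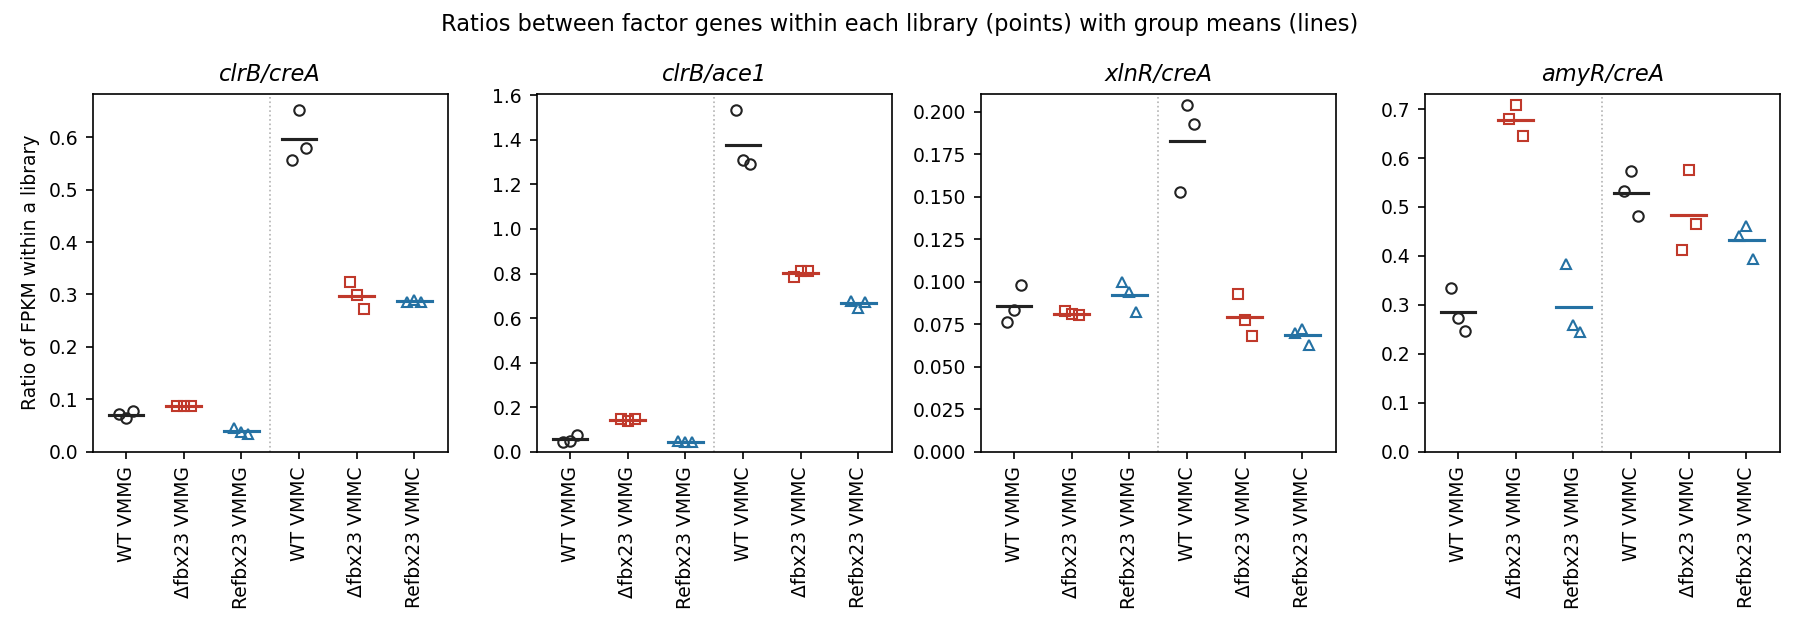
Ratios of FPKM between regulator genes within each library on linear axes that start at 0, with 1 point per library and a line at the mean of each group of 3. The WT in VMMC stands highest for clrB/creA, clrB/ace1 and xlnR/creA, and Δfbx23 in VMMG stands highest for amyR/creA, at 0.646 to 0.709.

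The genes that these factors act on were counted from the lists of the study. Of 13 cellulase genes, 12 could be tested in the WT, and 9 were at least 2-fold higher and 2 lower in VMMC than in VMMG, with a median log2 change of 4.98 beside 0.13 over all genes, of which 25.7% were higher and 15.5% lower by that rule. cbh1 (PDE_07945), the main GH7 cellobiohydrolase gene, rose by 9.76 (SE 0.31) and cbh2 (PDE_07124), its GH6 counterpart, by 10.1 (SE 0.45). The endoglucanase genes cel5E (PDE_03711) and cel12B (PDE_02886) had changes of -3.98 and -3.10, both past the threshold. In Δfbx23 10 of 13 rose and 2 fell, beside 20.9% and 11.9% of all genes, with a median of 5.52. In Refbx23 9 of 12 rose and 0 fell by 2-fold, beside 13.7% and 7.68%, with a median of 2.16.

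In VMMC, where clrB and xlnR were lower in both engineered strains than in the WT, the median changes of the cellulase genes had opposite signs. Of 13 tested in Δfbx23, 9 were at least 2-fold higher and 1 lower than in the WT, beside 6.05% and 8.34% of all genes, with a median log2 change of 1.55 beside -0.03 over all genes. Of 12 tested in Refbx23, 0 were higher and 3 lower at 2-fold, beside 5.63% and 7.09% of all genes, and 8 were lower at an adjusted p under 0.05, beside 31.3%, with a median of -0.74 beside -0.01. Their FPKM summed to 7503, 8556 and 7109 in the WT, to 20660.2, 13817 and 15735 in Δfbx23 and to 3071, 3314 and 3644 in Refbx23, without overlap. The means were 2.17-fold and 0.433-fold that of the WT. The largest parts of the Δfbx23 sums were cbh2, cbh1 and cel5B (PDE_09226), at 6663, 3282 and 2921 FPKM on average. The 1 lower gene in Δfbx23, PDE_05445, averaged 115, 26.1 and 3.31 FPKM in the WT, Δfbx23 and Refbx23. Refbx23 was below Δfbx23 for 11 of 13 cellulase genes at 2-fold, beside 1.67% of all genes, with a median of -2.54, while clrB and xlnR did not differ between these strains past the threshold.

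**Figure D4:**
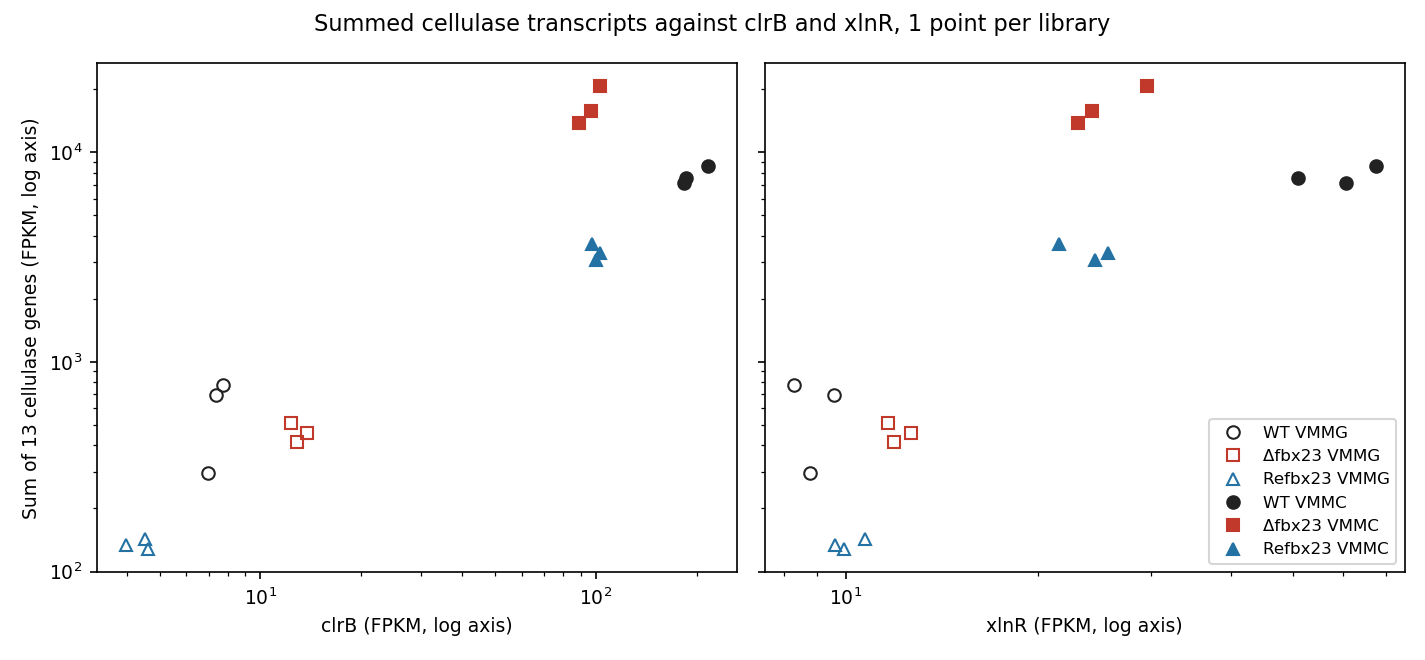
Summed FPKM of 13 cellulase genes against the FPKM of clrB and of xlnR on log axes, with 1 point per library, open symbols for VMMG and filled ones for VMMC. In VMMC, Δfbx23 and Refbx23 share a clrB range of 89.2 to 103 FPKM while their cellulase sums lie at 13817 to 20660.2 and at 3071 to 3644 FPKM.

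The other enzyme genes were read in the same way. The hemicellulase genes and those that help cellulases are ones the paper names from gene clusters it found upregulated in Δfbx23 in these data. That choice favours higher values in Δfbx23 in VMMC, so their counts there are no independent result. Of 4 hemicellulase genes, 2 were at least 2-fold higher in Δfbx23 than in the WT in VMMC, beside 6.05% of all genes. These 2 were xyn11A and man5A (PDE_06023). In Refbx23 1 was higher and 1 lower, beside 5.63% and 7.09%. The xylanase gene xyn10A (PDE_08094) was at 340.5, 715 and 80.2 FPKM on average in the WT, Δfbx23 and Refbx23. Its Δfbx23 libraries ran from 508 to 1121 FPKM. Its log2 change in Δfbx23 against the WT was 0.97 (SE 0.29, adjusted p = 0.024 in limma), short of 2-fold. The xylanase gene xyn11A (PDE_02101) was at 3.20, 437 and 56.7 FPKM, so that the WT, highest in xlnR, was lowest here. The WT libraries lay near the floor, from 0 to 7.43 FPKM, and xyn10A did not share this order. Of 3 genes that help cellulases, those of a lytic polysaccharide monooxygenase (PDE_05633) and a swollenin (PDE_02102) were higher in Δfbx23 than in the WT in VMMC by 1.57 (SE 0.12) and 1.95 (SE 0.09) on the log2 scale, and the beta-glucosidase gene bgl1 (PDE_02736) by 0.67 (SE 0.12), all with an adjusted p under 0.05. In VMMG the cellulase sum was 294 to 778 FPKM in the WT, 413 to 512 in Δfbx23 and 128 to 143 in Refbx23. The largest parts of the WT sum were cel5E and cel12B, at 437 and 90.1 FPKM on average. They averaged 191 and 223 FPKM in Δfbx23, and 44.7 and 16.0 FPKM in Refbx23. Over the 9 cellulase genes tested in Refbx23 against the WT in VMMG, the median log2 change was 0.24, beside 0.01 over all genes. Of 11 cellulase genes tested in VMMG, 0 were at least 2-fold lower in Δfbx23 than in the WT. By that rule 2 were higher, beside 4.77% of all genes. At an adjusted p under 0.05 of any size 2 were higher, beside 10.9% of all genes, and 1 was lower. The 11 genes had a median log2 change of -0.38, beside -0.07 over all genes. amyR, whose level in VMMG was 3.35-fold that of the WT, could be set beside 1 gene of starch or maltose breakdown in these lists, the alpha-glucosidase-like PDE_01756. In VMMG that gene averaged 5.25 FPKM in the WT and 6.62 FPKM in Δfbx23 and did not pass (log2 change 0.28). In VMMC, where amyR did not differ past the threshold, it was 1.08 higher in Δfbx23 (SE 0.10, adjusted p = 8.84e-05).

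Other genes were read in the same groups. The 6 conidial pigment genes, markers of spore formation, summed to 477 to 1074 FPKM in the WT, 44.7 to 66.0 FPKM in Δfbx23 and 3707 to 4481 FPKM in Refbx23 in VMMG. In VMMC these sums were 2841 to 3260, 2716 to 3319 and 2511 to 2707 FPKM. All 6 were at least 2-fold higher in VMMC than in VMMG in the WT and in Δfbx23, beside 25.7% and 20.9% of all genes. In Refbx23 2 were lower by that much, beside 7.68%. Their part in the strain differences of clrB, amyR and creA in VMMG was not tested. skp1 (PDE_02249), which encodes the adaptor of SCF ligases, was at 447, 269 and 266 FPKM on average in the WT, Δfbx23 and Refbx23 in VMMC, so that it too was lower in both engineered strains, by log2 changes of -0.73 and -0.74, each with an adjusted p under 0.05. The SCF parts and proteins tied to Fbx23 and Ace1 were listed together with set2 (PDE_02255), a homolog of yeast Set2. Of that list, 6 genes were tested in Δfbx23 against the WT in VMMC. Of these, 1 was at least 2-fold lower and 0 were higher, beside 8.34% and 6.05% of all genes. The 1 lower gene was fbx23 itself, a call set in advance by the deletion and no result about the others. Among 3 further zinc cluster genes, 0 passed 2-fold there, beside those same shares of all genes. PDE_09448 and PDE_04678 had log2 changes of 0.84 (adjusted p = 0.0042) and -0.42 (adjusted p = 0.015). The Cyc8/Ssn6-like corepressor gene PDE_03177 had log2 changes of -0.01 and -0.02 in Δfbx23 and Refbx23 against the WT in VMMC.

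For each regulator the 3 genes with the most similar course were sought by the root mean square difference of log2(FPKM + 1) values, centred on each gene's own mean, over 18 libraries and among 8056 genes. For clrB these were PDE_03943, PDE_09100 and PDE_09442, with differences of 0.35, 0.40 and 0.45 on the log2 scale, and no gene came within 0.25. PDE_09100 had means of 6.77 and 212 FPKM in the WT in VMMG and VMMC. In Δfbx23 these were 26.2 and 110 FPKM, and in Refbx23 8.13 and 120 FPKM. Its Refbx23 mean in VMMG was thus not below that of the WT, unlike clrB. PDE_03943 lay near the floor in VMMG, with means of 0.07 to 0.54 FPKM. PDE_09442 had 23.4, 19.7 and 23.2 FPKM in the WT, Δfbx23 and Refbx23 in VMMC. For xlnR they were PDE_02166, PDE_07638 and PDE_09362, at 0.16, 0.18 and 0.19, and PDE_07638 had 444, 203 and 222 FPKM in the WT, Δfbx23 and Refbx23 in VMMC. For amyR they were PDE_08652, PDE_05451 and PDE_00832, at 0.23, 0.26 and 0.27, the first with 61.3, 191 and 75.5 FPKM in the 3 strains in VMMG. For creA they were PDE_02901, PDE_06458 and PDE_07345, at 0.12 to 0.19, and for ace1 PDE_04363, PDE_08166 and PDE_05646, at 0.14 to 0.18. Within 0.5 there were 6 genes for clrB, 73 for amyR, 512 for xlnR, 736 for creA and 3468 for ace1. The measure is not scaled to a gene's range, so these counts follow how far each regulator itself varied. Among themselves the 5 were further apart: the nearest pair was xlnR and creA at 0.46, and creA was the 57th nearest gene to amyR.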

How the data were processed

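Transcripts were measured in 18 libraries, 3 for each of 6 strain and medium groups taken from the labels. The authors deposited 1 table of FPKM values with 2 decimals for 9230 genes, of which 9210 carry PDE locus tags. The aligner, the genome version and the counting are not given in the sources used here. The labels describe tag libraries cut with NlaIII and MmeI, whereas the study's methods describe RNA-Seq, and no read counts were used, so depth and counting error are unknown.

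From the deposited FPKM, log2(FPKM + 1) values were fitted with limma 3.58.1 in R 4.3.3 (empirical Bayes, intensity trend) for the 6 libraries of each of 9 comparisons, keeping genes that averaged 1 FPKM or more in those libraries. The pseudocount shrinks fold changes of low genes. Whether the medium effect differed between strains was tested as an interaction over 12 libraries. p-values were adjusted over all genes tested by Benjamini-Hochberg. Genes were called at 2-fold and an adjusted p under 0.05, and counted also at that p at any size. Fits were tested on simulated data. Single genes and within-library ratios were tested by two-sided exact permutation tests in Python 3.11.15. Alternatives were pseudocounts of 0.1 and 0.5, a minimum of 5 FPKM or none, a replicate block, no intensity trend, scaling by median ratios, a joint fit of all 18 libraries and leaving out each library.

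The 5 regulators, the lists of enzyme, SCF, zinc cluster, corepressor and pigment genes, and the 3 closest genes per regulator are the genes named. Members and lists were chosen with earlier results of these data known. Positions and sequences were not used here, since no matching annotation was at hand.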

Additional observations from a re-analysis of the deposited data

Results flagged for a closer look

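The effect of the medium differed between strains, by the interaction test in limma, for 6 pairs of a regulator gene and a strain. As the log2 change from VMMG to VMMC in Δfbx23 minus that in the WT, the values were -1.75 for clrB, -1.59 for xlnR, -1.89 for amyR and -0.52 for creA, so that 4 of 5 members were lower at an adjusted p under 0.05, beside 21.7% of all genes in that direction. For Refbx23 minus the WT they were -0.31 for clrB, which did not hold without single libraries, and -1.44 for xlnR, that is 2 of 5 members beside 30.8% of all genes. xlnR was thus the 1 gene of the 5 whose medium effect was smaller by at least 2-fold in both engineered strains. The same WT libraries enter both differences.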

How the results depend on the processing

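Of 55 log2 changes of the 5 genes, 33 kept direction and side of the threshold of an adjusted p of 0.05 under every alternative run. Over 830 recomputed values, 760 were on the same side, 35 lost the call, 13 gained it and 22 changed sign. With median-ratio scaling the members changed by 2-fold numbered 1, not 2, for Δfbx23 against the WT in VMMC and 1, not 3, for the media in Δfbx23, and the sign turned for creA in Δfbx23 against the WT in VMMC (0.028), ace1 in Refbx23 against Δfbx23 in VMMG (-0.00046) and ace1 between the media in the WT (-0.074). With all 18 libraries in 1 fit, the members past an adjusted p of 0.05 numbered 2, not 1, for Refbx23 against the WT in VMMG and 0, not 1, for Refbx23 against Δfbx23 in VMMC, and the latter was 0 also without the intensity trend. The joint fit also gave a call to ace1 for both strains against the WT in VMMG and for the medium effect of Refbx23. With median-ratio scaling the medium effect of Refbx23 had 2 calls as before, but clrB was lost (adjusted p = 0.070) and ace1 gained (adjusted p = 0.040). The number for that effect was 1, not 2, with a pseudocount of 0.1 or 0.5 and without the trend. The cause was not tested.

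Leaving out 1 library, the members past an adjusted p of 0.05 ranged from 2 to 5 for Δfbx23 and from 1 to 2 for Refbx23 against the WT in VMMG, from 0 to 1 for Refbx23 against Δfbx23 in VMMC and from 1 to 2 for the medium effect of Refbx23 against the WT, and those changed by 2-fold from 1 to 2 for Δfbx23 against the WT in VMMC. Signs turned for creA in Δfbx23 against the WT in VMMC (-0.083 to 0.044). For Refbx23 against the WT they turned for amyR (-0.086 to 0.26) and creA (-0.040 to 0.15) in VMMG, ace1 in VMMC (-0.021 to 0.20) and the medium effect of creA (-0.055 to 0.14). For Refbx23 against Δfbx23 they turned for ace1 in VMMG (-0.020 to 0.12) and for xlnR (-0.16 to 0.011) and amyR (-0.16 to 0.039) in VMMC, and between the media in the WT for ace1 (-0.16 to 0.26). Among log2 ratios they turned for clrB/creA in Refbx23 against Δfbx23 in VMMC (-0.12 to 0.0090), xlnR/creA in Δfbx23 against the WT in VMMG (-0.15 to 0.028) and between the media in Δfbx23 (-0.16 to 0.060), and amyR/creA in Refbx23 against the WT in VMMG (-0.17 to 0.15).

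Same-numbered replicates did not deviate together, with correlations of -0.21 to 0.26, over 0.1 for every pair in 0 of 9 comparisons, and at most 2 of 3 samples correlated best with their own number. With a replicate block the members past an adjusted p of 0.05 numbered 2, not 4, for Δfbx23 against the WT in VMMG, 0, not 1, for Refbx23 against Δfbx23 in VMMC and 1, not 2, for the medium effect of Refbx23 against the WT, while amyR in Refbx23 against the WT in VMMC gained a call (adjusted p = 0.039). Among all genes, 1942 passed an adjusted p of 0.05 for Δfbx23 against the WT in VMMG, 3184 with all 18 libraries, and 1271, 994, 1246 and 1011 without WT replicate 1 or 2 or Δfbx23 replicate 2 or 3. For Refbx23 against Δfbx23 in VMMC, 1193 passed, 586 with all 18 libraries, 782 with the block, and 1830, 750, 601, 610 and 615 without Δfbx23 replicate 1 or 3 or Refbx23 replicate 1, 2 or 3.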
